A study of Mus musculus with 24 samples.

Results

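The genes described here are 10 transcription factor genes of the ETS and RUNX families: Spi1 (the gene of PU.1), Runx1, Runx2, Runx3, Fli1, Erg, Ets1, Ets2, Elf4 and Etv6. They were chosen by name, as the rows whose Ensembl identifier maps to these symbols, and each of the 10 symbols matched 1 row among 45319 rows of the table. RUNX proteins bind DNA through a Runt domain and as a dimer with the non-DNA-binding partner CBFB, and ETS proteins bind elements built around the letters GGAA. PU.1 is required for macrophage and granulocyte development, while RUNX1, FLI1 and ERG act together with GATA2, TAL1, LYL1 and LMO2 in blood stem and progenitor cells. ETS1 and RUNX3 are best known from lymphocytes, RUNX2 from bone, and ETV6 as a repressor needed by blood stem cells.

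RNA was sequenced from Lys-GFP-ER-HoxA9 cells, a mouse line of the C57Bl/6 strain named for a lysozyme GFP reporter and an oestrogen receptor fusion of HoxA9. It was grown with stem cell factor and 0.5 uM beta-estradiol, which keeps such a fusion protein active and the cells immature. All groups share this 1 line, and the labels do not say whether libraries of 1 time came from separate cultures, so p-values measure the spread between these libraries, which may be technical. The withdrawal group held 2 libraries, called A and B after their column letters, at each of 0, 4, 8, 12, 24, 36, 48, 72, 96 and 120 h after estradiol was taken away. The R07 group held 1 library at each of 12, 36, 72 and 120 h of treatment with an agent given only as R07, with or without estradiol, a detail not given in the labels.

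Gene counts ran from 36.7 to 49.6 M per library, with a median of 43.7 M. The summed level of 10 progenitor markers was 5200.4 to 5248 CPM (counts scaled to library size, with TMM factors) at 0 h, 460.2 to 499 CPM at 120 h of withdrawal and 5515 to 5936 CPM in R07. Most of the 0 h sum was Cd34, Myb and Kit (means of 2765, 976 and 761 CPM), which fell to 44.3, 30.9 and 34.7 CPM at 120 h. Hoxa9 and Ly6a went up, from 140 and 0.05 CPM to 302 and 43.8 CPM, and Hoxa9 was most of the 120 h sum. In R07, Hoxa9 gave 79.9, 65.9, 203 and 178 CPM in time order. The sum of 12 neutrophil markers went from 57.7 to 58.4 CPM at 0 h to 23375 to 31772 CPM at 120 h, and that of 12 monocyte and macrophage markers from 766 to 815 CPM at 0 h down to 71.2 to 71.7 CPM at 24 h and up to 6623 to 6793 CPM at 120 h. Ccr2 alone gave 781 ± 35.0 CPM (SD, n = 2) at 0 h and 40.9 ± 0.09 CPM at 24 h, most of that fall. Csf1r, Cd14 and Adgre1 went up between these times, from 0.79, 0.46 and 2.61 CPM to 9.22, 4.61 and 12.4 CPM. Ly86 and Mrc1 went down, from 2.69 and 0.70 CPM to 0.08 and 0.12 CPM. Mast cell and basophil markers summed to 244 to 287 CPM at 0 h, 903 to 911 CPM at 24 h and 42.5 to 49.4 CPM at 120 h. Eosinophil markers summed to 34.9 to 36.1 CPM at 0 h, 601 to 618 CPM at 24 h and 177 to 198 CPM at 120 h. T and NK cell markers summed to at most 79.8 CPM in the 0, 24 and 120 h and R07 libraries, with Cd3e, Cd8a, Cd8b1, Ncr1 and Gzma at 0 counts in all 24 libraries. The part of these changes in cell markers in the results for the 10 genes was not tested, and in bulk RNA fewer cells of a type and less RNA per cell cannot be told apart.

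All 10 genes changed over the withdrawal course (edgeR quasi-likelihood test with Benjamini-Hochberg adjustment over 14615 genes, adjusted p between 2.88e-16 for Ets1 and 9.51e-10 for Etv6), as did 91.1% of all genes tested. At 120 h, 6 of the 10 were higher than at 0 h (Spi1, Runx1, Fli1, Ets1, Ets2 and Elf4) and 4 were lower (Runx2, Runx3, Erg and Etv6), beside 79.9% of all genes called in either direction. The median change of all genes was -0.06 on the log2 scale. The genes that rose and those that fell divided both families: 1 of 3 RUNX genes and 5 of 7 ETS genes rose.

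**Figure D1:**
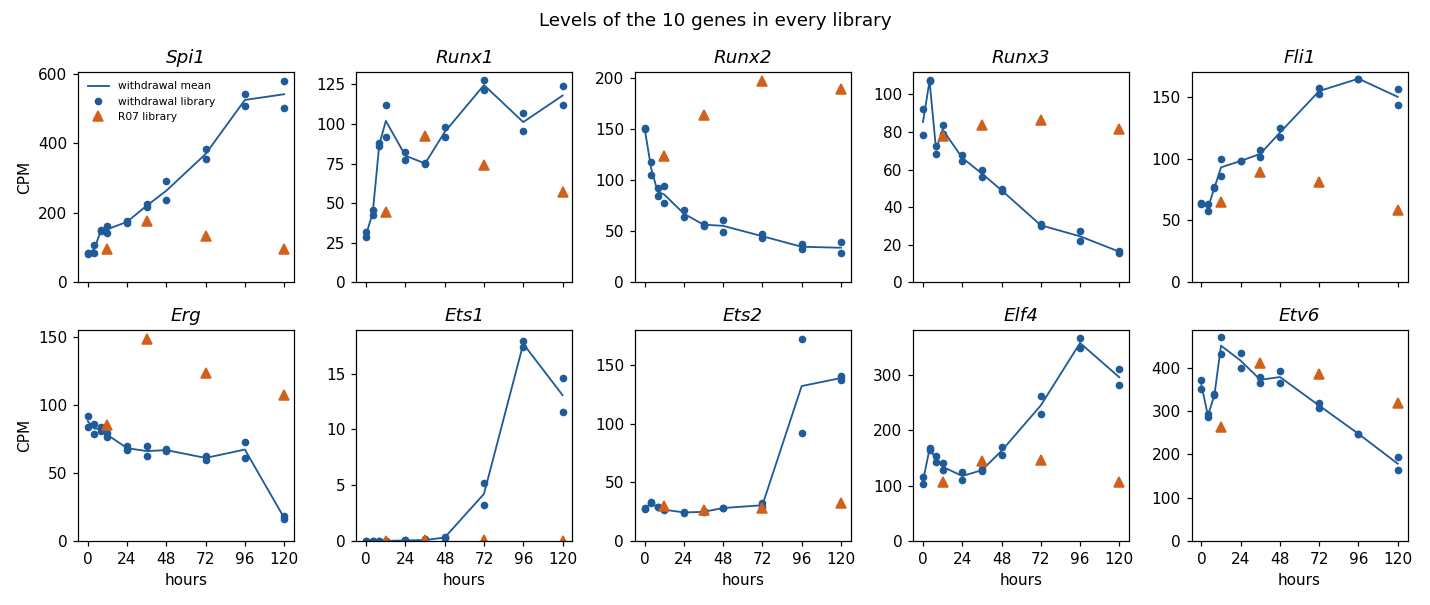
Level of each of the 10 genes in CPM (y axis, from 0) against hours (x axis); circles are single withdrawal libraries, lines join their means, and triangles are single R07 libraries. Spi1 reaches 502 to 580.3 CPM at 120 h, Erg is at its lowest at 120 h, and Ets1 and Ets2 are high only from 72 or 96 h.

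The members did not move at the same time. At 4 h, Runx1, Runx3 and Elf4 were higher and Runx2 and Etv6 lower than at 0 h, 5 of 10 beside 11.7% of all genes. The calls for Runx1 and Elf4 at 4 h remained under each of 26 alternatives (other normalization, filter, tool or set of libraries), while those for Runx2, Runx3 and Etv6 remained under 18, 17 and 21 of them. Calls against 0 h then numbered 6 at 8 h, 6 at 12 h, 6 at 24 h, 6 at 36 h, 8 at 48 h, 9 at 72 h and 10 at 96 h, where 21.9, 16.0, 27.9, 40.9, 52.6, 69.6 and 77.4% of all genes were called. The members' share was above that of all genes at each of these times, and at 96 and 120 h the share of all genes was itself high. Of the 6 calls at 8 h, those for Runx3 and Fli1 remained under only 9 and 11 of the 26 alternatives.

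**Figure D2:**
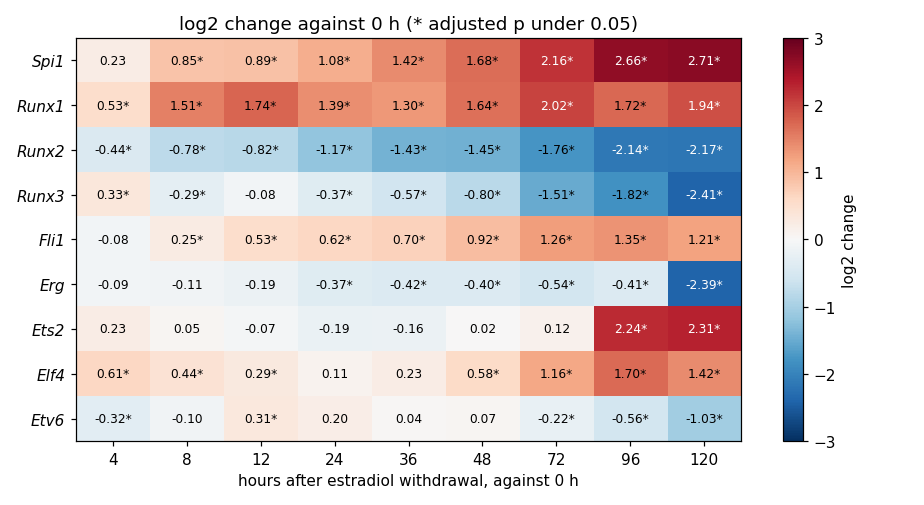
Log2 change against 0 h (colour) of 9 genes (rows) at each later time (columns), from the edgeR fit; marked cells passed the adjusted p threshold of 0.05. Ets1 is left out because its counts at 0 h were near 0. Runx1 rose from 4 h on and Ets2 from 96 h, and Erg had its large drop at 120 h.

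Spi1 (ENSMUSG00000002111.8, mm10 chr2:91082390-91115756, plus strand) encodes PU.1, the ETS factor that drives myeloid genes in a dose-dependent way. Its levels in libraries A and B were 83.5 and 80.1 CPM at 0 h, 107 and 85.4 at 4 h, 151 and 146 at 8 h, 142 and 163 at 12 h, and 171 and 177 at 24 h. They went on to 217 and 224 CPM at 36 h, 290.4 and 237 at 48 h, 383 and 355 at 72 h, 540.5 and 509 at 96 h, and 580.3 and 502 at 120 h. Both libraries lay above both 0 h libraries at every later time, and the group means climbed at each step. The change at 4 h, 0.23 ± 0.11 (log2 ± SE), was not called (adjusted p = 0.220), and the gene was called from 8 h (0.85 ± 0.11, adjusted p = 1.79e-05) to 120 h (2.71 ± 0.12, adjusted p = 2.25e-14), a fold of 6.61 between the means. Between neighbouring times, Spi1 rose from 4 to 8 h (0.62 ± 0.11, adjusted p = 9.20e-04), from 48 to 72 h (0.48 ± 0.11, adjusted p = 0.00180, and 0.054 without 48 h library B) and from 72 to 96 h (0.50 ± 0.11, adjusted p = 8.17e-04). From 96 to 120 h it differed by 0.04 ± 0.11 (adjusted p = 0.791).

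Genes through which PU.1 is known to act were followed as a list of 40 myeloid genes with known PU.1 binding elements. At 4 h, 5 of the 40 rose and 2 fell beside 11.7% of all genes called, and at 24 h 23 rose and 3 fell beside 27.9%. At 120 h 36 rose and 3 fell beside 79.9% of all genes called, with a median change of 5.05 beside -0.06 for all genes. Cybb, the catalytic subunit of the phagocyte oxidase, rose by 12.74 ± 0.34 and Ltf, the granule protein lactoferrin, by 12.71 ± 0.38 on the log2 scale. The primary granule genes Mpo (-5.64 ± 0.28) and Prtn3 (-2.05 ± 0.19) fell (adjusted p of these 4 at most 4.12e-09). Of 14 partners and opponents of PU.1, 9 rose and 3 fell at 120 h, beside 79.9% of all genes called, a share near the background. Irf4, a partner that binds composite elements with PU.1, changed by 7.85 ± 0.27, and Id2, an inhibitor of E proteins, by 6.56 ± 0.24 (adjusted p at most 1.21e-15). The repressor Gfi1 (-3.23 ± 0.15) and Gata2 (-2.90 ± 0.12) fell (adjusted p at most 6.53e-14). These are also myeloid maturation genes. At 24 h the neutrophil marker sum was higher (115 to 117 CPM) and the monocyte sum lower than at 0 h, and at 120 h both were higher. Most of the neutrophil rise by 24 h was Csf3r (mean 32.6 to 61.1 CPM) and Lcn2 (14.8 to 42.0 CPM). Cxcr2 rose from 1.22 to 6.83 CPM and Mmp8 fell from 5.63 to 0.94 CPM. Ltf (0.74 and 0.62 CPM) and S100a8 (0.87 and 1.26 CPM) stayed low at both times. Most of the monocyte fall was Ccr2, while Csf1r, Cd14 and Adgre1 rose. A shift of cell types by 24 h was not tested.

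Runx1 (ENSMUSG00000022952.13, mm10 chr16:92601466-92826149, minus strand) was the RUNX gene that rose. It gave 28.8 and 31.8 CPM at 0 h, 45.7 and 42.3 at 4 h, 87.9 and 86.2 at 8 h, 112 and 92.0 at 12 h, 82.6 and 77.3 at 24 h, and 74.6 and 75.6 at 36 h. It then gave 92.1 and 97.9 CPM at 48 h, 128 and 121 at 72 h, 95.3 and 107 at 96 h, and 124 and 112 at 120 h. All 18 later libraries lay above both 0 h libraries, with a first rise to 12 h, lower values at 24 and 36 h, and a second rise to 72 h. The increase was 0.53 ± 0.10 at 4 h (adjusted p = 0.00141), 1.74 ± 0.10 at 12 h (adjusted p = 3.07e-10) and 1.94 ± 0.11 at 120 h (adjusted p = 6.18e-13). The step from 4 to 8 h, 0.97 ± 0.10, was the largest change of Runx1 between neighbouring times (adjusted p = 1.73e-06). The dip from 12 to 24 h was called at -0.34 ± 0.10 (adjusted p = 0.0196), but not when library A at 12 h (adjusted p = 0.283), library A at 24 h (0.0572) or library B at 24 h (0.169) was left out. The rise from 48 to 72 h (0.38 ± 0.10, adjusted p = 0.00437) remained under each alternative.

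Runx2 (ENSMUSG00000039153.13, mm10 chr17:44495987-44814797, minus strand), the osteoblast regulator, fell through the course. Its libraries A and B gave 152 and 151 CPM at 0 h, 105 and 118 at 4 h, 84.9 and 92.7 at 8 h, 94.1 and 78.1 at 12 h, and 70.7 and 63.9 at 24 h. The later values were 57.4 and 55.7 CPM at 36 h, 49.5 and 61.3 at 48 h, 43.5 and 46.9 at 72 h, 32.3 and 37.5 at 96 h, and 39.5 and 28.2 at 120 h. No later library reached the 0 h libraries. The decrease was -0.44 ± 0.14 at 4 h (adjusted p = 0.0393), where leaving out 1 of several libraries ended the call (adjusted p up to 0.276), -1.17 ± 0.14 at 24 h (adjusted p = 1.15e-06) and -2.17 ± 0.14 at 120 h (adjusted p = 1.38e-11). The antisense gene Runx2os1 overlaps 519 bases of its exons and held 2.05% of the counts of Runx2 over the 24 libraries. The strand setting of the counting is not given in the sources used here, so reads in that overlap cannot be assigned with certainty.

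Runx3 (ENSMUSG00000070691.7, mm10 chr4:135120652-135177990, plus strand), known from cytotoxic T cell and NK cell development, went up at 4 h and then down. Levels were 92.3 and 78.5 CPM at 0 h, 107 and 107 at 4 h, 68.4 and 72.7 at 8 h, 79.1 and 83.6 at 12 h, 64.8 and 67.6 at 24 h, and 56.0 and 59.8 at 36 h. They were 48.4 and 49.6 CPM at 48 h, 29.8 and 30.9 at 72 h, 21.7 and 27.2 at 96 h, and 16.7 and 15.8 at 120 h. Both 4 h libraries were above both 0 h libraries, and from 24 h on all libraries were below them. The increase at 4 h was small (0.33 ± 0.10, adjusted p = 0.0360) and was not called with RLE scaling (adjusted p = 0.0561) or without 0 h library B (adjusted p = 0.375). The step down from 4 to 8 h (-0.62 ± 0.10, adjusted p = 2.99e-04) and the decrease at 120 h (-2.41 ± 0.11, adjusted p = 3.19e-14) remained under each alternative. T and NK cell markers summed to 41.4 to 43.6 CPM at 0 h and 3.03 to 3.51 CPM at 120 h. Most of the 0 h sum was Tcf7 and Thy1 (means of 23.8 and 12.2 CPM), which were at 0.19 and 0.02 CPM at 120 h. Cd3d and Klrb1c were among those that went up, from 0.01 CPM each to 1.25 and 1.03 CPM. Of the 14 markers, 8 were under 1 CPM in all 24 libraries. The part of such markers in the fall of Runx3 was not tested.

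Because counts grow with transcript length, the 3 RUNX genes were compared as CPM per kb of annotated exon. Runx1 made up 6.31 and 7.48% of the summed RUNX level in the 0 h libraries, 23.9 and 22.3% at 8 h, 49.5 and 46.8% at 72 h, and 56.9 and 59.4% at 120 h. Runx2 took 45.1 and 48.2% in the 0 h libraries and 24.6 and 20.4% in the 120 h libraries, and for Runx3 these shares were 48.5 and 44.3% and then 18.4 and 20.2%. In both libraries of each time, Runx1 was the smallest of the 3 shares at 0 h and the largest from 72 h on. The summed level itself was lower at the end, at 36.7 ± 1.85 CPM per kb (SD, n = 2) at 0 h and 16.9 ± 1.76 at 120 h. With the longest transcript as the length, the Runx1 share was 10.3% at 0 h and 68.2% at 120 h as means of 2 libraries, and it was the largest share from 48 h on (43.9 and 42.9% at 48 h, beside 34.8 and 32.8% for Runx3).

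**Figure D3:**
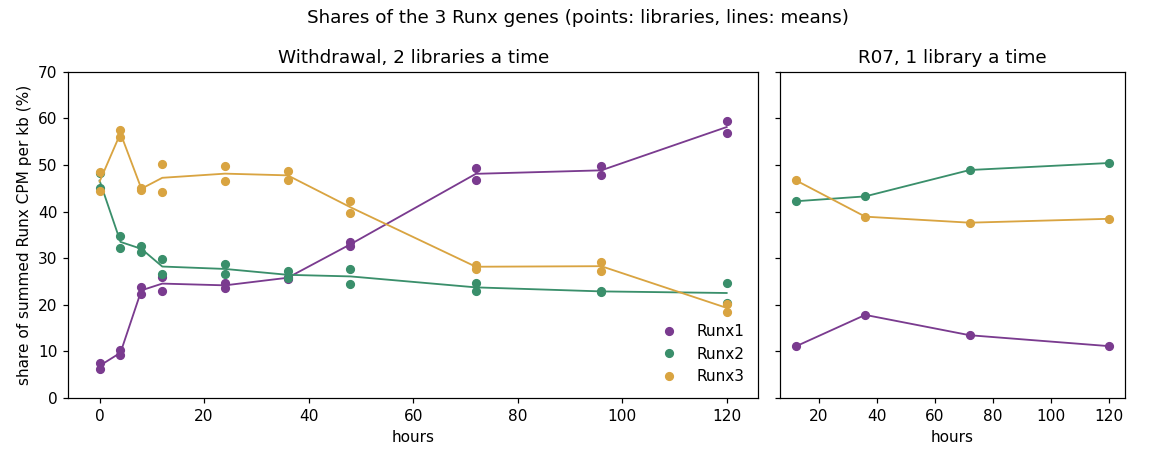
Share of Runx1, Runx2 and Runx3 in their summed CPM per kb (y axis, percent) against hours (x axis) for withdrawal (left) and R07 (right); points are libraries and lines join means. The Runx1 share passes those of Runx2 and Runx3 by 72 h of withdrawal and stays between 11.0 and 17.8% in the R07 libraries.

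The promoters of the RUNX genes are shown because the 3 genes moved apart while sharing an element made of the letters that RUNX proteins bind. Windows of 250 bases before to 50 after a start, from RefSeq on GRCm38.p6, matched 7 of the 10 genes with 12 windows, and were searched on both strands for the RUNX letters TGTGGT (reverse complement ACCACA), present in 16.8% of 32851 windows of this length. The most upstream window of each RUNX gene held this match as a pair, written ACCACANNACCACA. The pair occurred in 7 of these 32851 windows (0.0213%), and 3 of these 7 were the RUNX windows. The 32851 windows leave out those of 1 autosome, on which none of the 10 genes lies. The stretches below have the matches in capitals, and the pair begins at base 29 and base 24 after the start for Runx1 and Runx2 and at base -134 for Runx3.
Runx1, chr16:92826025-92826054, minus strand: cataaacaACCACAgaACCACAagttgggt
Runx2, chr17:44814583-44814612, minus strand: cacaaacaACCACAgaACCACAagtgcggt
Runx3, chr4:135120503-135120532, plus strand: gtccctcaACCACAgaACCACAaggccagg
A match of letters is a description and not a measured binding site. The letters GAGGAA, a PU.1 type element, were in 28.3% of the 32851 windows and among members in 1 of 2 windows of Runx1 and in 2 of 2 windows of Elf4. The ETS type letters CGGAAG share the GGAA core with GAGGAA but cannot lie on the same core. They were in 16.9% of the 32851 windows and in none of the 12.

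RUNX proteins work through partners and co-regulators. Of 11 of these tested, 5 rose and 5 fell at 120 h beside 79.9% of all genes called, with a median change of -0.02. Tle3 (4.08 ± 0.14), a Groucho family co-repressor, and Ep300 (1.77 ± 0.13), an acetyltransferase, rose (adjusted p at most 5.38e-11), while Cbfa2t3 (-3.37 ± 0.16), an ETO family co-repressor, and Tle1 (-3.23 ± 0.20) fell (adjusted p at most 4.90e-12). Cbfb, the common RUNX partner, fell from 236 ± 24.3 CPM (SD, n = 2) at 0 h to 176 ± 9.41 CPM at 120 h, a change of -0.44 ± 0.11 (adjusted p = 0.00112), and was named after its values were seen. Of 17 tested genes with known RUNX binding elements, 9 rose and 7 fell at 120 h beside the same 79.9%, with a median of 1.06. Csf1r (11.49 ± 0.33), the receptor of macrophage colony-stimulating factor, and the integrin gene Itgb2 (5.89 ± 0.15) rose, and the T cell factor gene Tcf7 (-7.01 ± 0.19) and Mpo fell (adjusted p of these 4 at most 1.21e-13). Csf1r, Itgb2 and Mpo also stand in the PU.1 list.

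Fli1 and Erg are close ETS relatives that act with RUNX1 in progenitors, and they moved in opposite directions. Fli1 (ENSMUSG00000016087.10, mm10 chr9:32422204-32542861, minus strand), also known for its role in megakaryocytes, gave 64.0 and 63.5 CPM at 0 h, 57.4 and 63.3 at 4 h, 77.1 and 76.0 at 8 h, 99.8 and 86.2 at 12 h, and 98.3 and 98.1 at 24 h. It gave 107 and 101 CPM at 36 h, 118 and 125 at 48 h, 157 and 153 at 72 h, 165 and 165 at 96 h, and 156 and 144 at 120 h. From 8 h on, both libraries were above both 0 h libraries. The increase was 0.53 ± 0.09 at 12 h (adjusted p = 1.87e-04) and 1.21 ± 0.09 at 120 h (adjusted p = 8.83e-11). The call at 8 h (0.25 ± 0.09, adjusted p = 0.0490) remained under only 11 of 26 alternatives. RLE scaling was among those that lost it (adjusted p = 0.0693).

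Erg (ENSMUSG00000040732.15, mm10 chr16:95359169-95586593, minus strand), a stem cell factor, gave 91.8 and 83.9 CPM at 0 h, 86.2 and 78.8 at 4 h, 80.8 and 83.5 at 8 h, 76.4 and 79.3 at 12 h, and 69.4 and 66.8 at 24 h. It gave 69.8 and 62.0 CPM at 36 h, 67.5 and 65.8 at 48 h, 62.6 and 59.2 at 72 h, 61.2 and 72.9 at 96 h, and 18.0 and 15.8 at 120 h. The libraries from 24 to 96 h thus lay in a narrow band below 0 h, and both 120 h libraries lay far below all others. The decrease was -0.37 ± 0.10 at 24 h (adjusted p = 0.00699, and 0.0884 or 0.081 with library A at 0 h or B at 24 h left out), -0.41 ± 0.10 at 96 h (adjusted p = 9.03e-04) and -2.39 ± 0.11 at 120 h (adjusted p = 2.59e-14). Most of it came in the step from 96 to 120 h, -1.99 ± 0.11 (adjusted p = 6.51e-12). The genes with the course most like that of Erg, by Pearson r of log2 CPM over the 20 withdrawal libraries among 8471 candidates, were Ncapd2 (0.97), Espl1 (0.97) and Cit (0.97). Their rank correlations with Erg (Spearman rho) were lower, at 0.83, 0.74 and 0.79. Such r values rest on 10 times with 2 libraries each and are a description.

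Of 9 tested stem and progenitor factors that act with RUNX1, FLI1 and ERG, 3 rose and 6 fell at 120 h beside 79.9% of all genes called, with a median of -2.21. Myb (-5.01 ± 0.17), the progenitor factor, and Gata2 fell, and Hhex (0.82 ± 0.10) and Lyl1 (0.55 ± 0.13) rose (adjusted p at most 5.03e-04). At 24 h, 1 of the 9 had risen and 4 had fallen beside 27.9% of all genes called, with a median of -0.17. The partners named at the start were divided. Mean levels of Lyl1 and Lmo2 went up from 0 to 120 h (93.6 to 138 CPM and 169 to 205 CPM). Those of Gata2 and Tal1 went down (72.6 to 9.89 CPM and 88.5 to 15.4 CPM). Runx1 and Fli1 therefore rose with Lyl1 and Lmo2, in libraries in which most of the longer list fell. Erg fell, as did Gata2 and Tal1.

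Ets1 (ENSMUSG00000032035.12, mm10 chr9:32636221-32757820, plus strand), a factor of T, B and NK cells, was nearly absent from the early libraries. Its counts in libraries A and B were 0 and 1 at 0 h, 0 and 1 at 4 h, 1 and 0 at 8 h, 0 and 0 at 12 h, 2 and 2 at 24 h, and 1 and 6 at 36 h. They reached 12 and 18 at 48 h, 213 and 136 at 72 h, 568 and 603 at 96 h, and 528 and 335 at 120 h. In CPM this was 5.18 and 3.26 at 72 h, 17.4 and 18.0 at 96 h, and 14.6 and 11.6 at 120 h, well above every library up to 48 h. The ratio of 120 h to 0 h rests on 863 against 1 counts and was 1173 (95% counting interval 209.9 to 46369, which covers counting error only). Ets1 was called from 48 h (adjusted p = 6.04e-04) to 120 h (adjusted p = 3.46e-13), and rose from 48 to 72 h (3.77 ± 0.32, adjusted p = 2.19e-08) and from 72 to 96 h (2.06 ± 0.22, adjusted p = 2.41e-07). At 120 h the T and NK cell markers summed to 3.03 to 3.51 CPM and the B cell markers to 167 to 171 CPM, of which Ighm made up 81.8 ± 7.39 CPM (SD, n = 2) after 0.75 ± 0.08 CPM at 0 h. The part of these cells in the level of Ets1 was not tested. By exon length it remained the lowest of the 10, at 1.54 ± 0.26 CPM per kb (SD, n = 2) at 120 h.

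Ets2 (ENSMUSG00000022895.11, mm10 chr16:95702075-95721051, plus strand), a factor of Ras signalling in macrophages, stayed level for 72 h and then jumped. All 16 libraries up to 72 h lay between 23.6 and 32.8 CPM. The 96 h libraries gave 172 and 92.2 CPM and the 120 h libraries 137 and 141 CPM, all above every earlier one. At 96 h the libraries A and B differed by more than at any other time. The increase was 2.24 ± 0.17 at 96 h (adjusted p = 2.37e-10) and 2.31 ± 0.17 at 120 h (adjusted p = 1.21e-10), and the step from 72 to 96 h was 2.11 ± 0.17 (adjusted p = 5.30e-09). At 4 to 72 h no difference from 0 h was called (adjusted p at least 0.450). The genes most like Ets2 were Rnf34 (r = 0.99, rho = 0.80), Eif2ak2 (0.99, 0.65) and Adar (0.99, 0.87). Likewise Ets1 was most like S100a8 (0.99, 0.90), Cdkn1b (0.99, 0.91) and Slc35a5 (0.99, 0.96) over the same 20 libraries.

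Elf4 (ENSMUSG00000031103.9, mm10 chrX:48411046-48463132, minus strand), which restrains proliferation of T cells and acts in innate immunity, rose in 2 phases. It gave 115 and 102 CPM at 0 h, 169 and 164 at 4 h, 153 and 143 at 8 h, 140.1 and 128 at 12 h, 124 and 111 at 24 h, and 126 and 129.6 at 36 h. It then gave 169.9 and 156 CPM at 48 h, 261 and 229 at 72 h, 367 and 349 at 96 h, and 310.5 and 281 at 120 h. Thus the 4 h libraries were above the 0 h libraries, the 24 h libraries overlapped them again, and those from 36 h on lay above both. The change was 0.61 ± 0.10 at 4 h (adjusted p = 1.71e-04), 0.11 ± 0.10 at 24 h (adjusted p = 0.471), 1.70 ± 0.10 at 96 h (adjusted p = 2.20e-12) and 1.42 ± 0.10 at 120 h (adjusted p = 2.71e-11). The early phase had no counterpart in Fli1, which differed by -0.08 ± 0.09 at 4 h (adjusted p = 0.640).

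Etv6 (ENSMUSG00000030199.13, mm10 chr6:134035700-134270158, plus strand), the repressor of the group, was the most abundant of the 10 per kb at 0 h and went down, up and down again. It gave 371 and 351 CPM at 0 h, 293 and 286 at 4 h, 341 and 337 at 8 h, 472 and 432 at 12 h, 435 and 399 at 24 h, and 366 and 379 at 36 h. From there it gave 364 and 394 CPM at 48 h, 308 and 319 at 72 h, 248 and 247 at 96 h, and 194 and 163 at 120 h. Both 12 h libraries were above, and both 4 h libraries below, the 0 h libraries. The changes of -0.32 ± 0.09 at 4 h (adjusted p = 0.0247) and 0.31 ± 0.09 at 12 h (adjusted p = 0.0214) were lost when single 0 h libraries were left out (adjusted p up to 0.142 and 0.159). The decrease at 120 h, -1.03 ± 0.09 (adjusted p = 1.81e-09), remained under each alternative.

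Per kb of exon at 0 h, the order was Etv6 (60.4 ± 2.42 CPM per kb, SD, n = 2), Spi1 (30.4 ± 0.90), Erg (25.3 ± 1.63), then Fli1, Elf4, Runx2 and Runx3 between 17.1 and 18.3, Ets2 (4.79 ± 0.06), Runx1 (2.52 ± 0.18) and Ets1. The libraries of Fli1 and Elf4, of Elf4 and Runx2, and of Runx2 and Runx3 overlapped, and no other neighbours did. At 120 h Spi1 led at 200.7 ± 20.6 CPM per kb, followed by Elf4 (48.1 ± 3.36), Fli1 (43.0 ± 2.59), Etv6 (29.9 ± 3.61) and Ets2 (24.1 ± 0.38). Below them came Runx1 (9.81 ± 0.73), Erg (4.88 ± 0.45), Runx2 (3.83 ± 0.90) and Runx3 (3.25 ± 0.13), of which only Runx2 and Runx3 overlapped as neighbours. With the longest transcript as length, Runx2 (23.4 CPM per kb) and Runx3 (22.0) came before Fli1 (19.2) and Elf4 (17.9) at 0 h, and Ets2 came before Etv6 and Runx2 before Erg at 120 h.

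Across the 20 withdrawal libraries, 2 at each time, the pairs of members with the highest Pearson r were Spi1 and Fli1 (0.96), Ets1 and Elf4 (0.93), Spi1 and Ets1 (0.91) and Runx2 and Runx3 (0.90), while Spi1 and Runx2 had -0.97 and Spi1 and Runx3 -0.95. In the same order, Spearman rho was 0.94, 0.71, 0.91, 0.95, -0.98 and -0.95. The genome holds 2 neighbouring pairs of these genes. Ets1 and Fli1 on chromosome 9 both rose (r = 0.88, rho = 0.90), and Ets2 and Erg on chromosome 16 moved apart (r = -0.70, rho = -0.24). The genes most like Spi1 were Vsir (0.99), Tnfrsf1a (0.99) and Arap3 (0.99), and those most like Fli1 were Naip5 (0.99), Pstpip2 (0.99) and Cxcr4 (0.99). Runx1 had the weakest likeness of the 10, with Snx14 (0.90), Fgl2 (0.90) and Tmem205 (0.90). Most like Runx2 were Slc35b4, Cep78 and Msi2 (0.97 to 0.98), most like Runx3 were Heg1, Klhl42 and Smarcc1 (0.99), most like Elf4 were Rassf2, Cd82 and Id2 (0.98 to 0.99), and most like Etv6 were Asb1, Inafm2 and Epha7 (0.95 to 0.98).

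The steps between neighbouring times gave member calls beside shares of all genes that were also highest from 48 h on. From 4 to 8 h, 3 members rose and 1 fell beside 12.4% of all genes, from 8 to 12 h 1 rose (Etv6) beside 9.21%, and from 12 to 24 h 2 fell beside 19.6%. From 24 to 36 h none of the 10 was called by edgeR beside 7.18% of all genes, with 1 member (Spi1) at an unadjusted p under 0.05. With the 2 times alone in the fit, Spi1 (adjusted p = 2.64e-04) and Runx2 (adjusted p = 0.0223) were called in that step. From 36 to 48 h 3 rose beside 12.7%, from 48 to 72 h 5 rose and 2 fell beside 44.0%, from 72 to 96 h 4 rose and 4 fell beside 53.7%, and from 96 to 120 h 4 fell and none rose beside 43.2%. Those last 4 were Runx3, Erg, Elf4 and Etv6, of which Elf4 (-0.28 ± 0.10, adjusted p = 0.0245) was not called with RLE scaling (adjusted p = 0.0528).

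Other ETS genes were divided as well. Of 20 listed genes, 11 passed the filter on low counts, 4 of which rose and 5 fell at 120 h beside 79.9% of all genes called, with a median of -0.25. Etv3 (1.87 ± 0.12), an ETS repressor, and Elk1 (1.53 ± 0.12), a target of MAP kinases, rose (adjusted p at most 3.14e-10). Gabpa (-0.54 ± 0.12) and Elf2 (-0.48 ± 0.09) fell (adjusted p at most 2.94e-04). These are not the largest changes of the list, because genes of low mean level were not picked for naming. Etv4 went from 17.3 ± 2.28 CPM (SD, n = 2) at 0 h to 0.02 ± 0.02 CPM at 120 h, and Spib from 0.03 ± 0.04 to 1.35 ± 0.25 CPM. At 24 h none of the 11 had risen and 7 had fallen beside 27.9% of all genes called, with a median of -0.59.

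R07 was compared with withdrawal over 12, 36, 72 and 120 h, with time as a factor and 1 term for R07, so the test asks for a mean difference over the 4 times. Runx2, Runx3 and Erg were higher and Spi1, Fli1 and Ets1 lower, 6 of 10 beside 16.6% of 13641 genes. Runx1, Ets2, Elf4 and Etv6 were not called (adjusted p = 0.0829, 0.449, 0.130 and 0.596). Each R07 time has 1 library, and only the call of Runx2 remained when any single library was left out. In R07 the neutrophil markers summed to 79.1 to 294 CPM, the monocyte and macrophage markers to 720 to 2003 CPM, the 12 B cell markers to 391 to 812 CPM and the 12 megakaryocyte markers to 24.0 to 130.3 CPM, against 167 to 171 CPM for B cell and 73.3 to 81.0 CPM for megakaryocyte markers at 120 h of withdrawal. The megakaryocyte and B cell sums were made of different genes in the 2 groups. Itga2b was the largest megakaryocyte marker in R07 (9.63, 40.9, 108 and 59.5 CPM in time order) and was lower at 120 h of withdrawal. There Vwf and Pf4 were the largest (means of 41.8 and 21.9 CPM), and both were lower in R07. Ebf1, Rag2 and Igll1 were most of the B cell sum in R07. Ighm and Cd79b were most of it at 120 h of withdrawal (means of 81.8 and 82.4 CPM), and both were lower in R07. Ccr2 alone gave 704, 1312, 1890 and 1681 CPM of the monocyte and macrophage sum in R07, in time order. Mast cell and basophil markers summed to 366 to 1215 CPM and the 10 endothelial markers to 179 to 361 CPM in R07, against 42.5 to 49.4 and 26.5 to 28.6 CPM at 120 h of withdrawal. Of the endothelial markers, 9 were under 1 CPM in all 24 libraries. The endothelial sum was almost all Pecam1, at 178, 303, 361 and 203 CPM in R07 and 27.5 ± 1.47 CPM (SD, n = 2) at 120 h of withdrawal. The part of any of these markers in the differences was not tested.

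**Figure D4:**
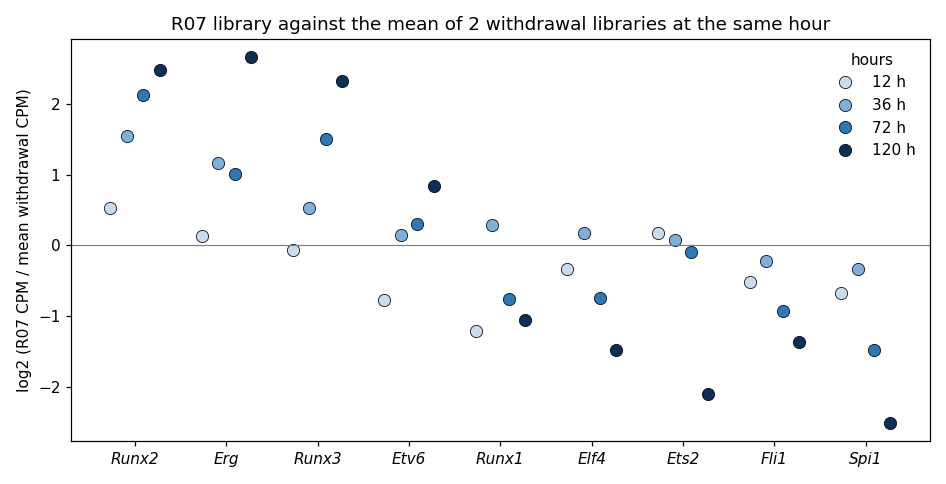
Log2 ratio of the R07 library to the mean of the withdrawal libraries of the same hour (y axis) for 9 genes (x axis), with 1 point for each of 12, 36, 72 and 120 h. Runx2 and Erg lie above 0 and Spi1 and Fli1 below 0 at all 4 times; Ets1 is left out because of its low counts.

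Runx2 in R07 gave 124 CPM at 12 h, 164 at 36 h, 198 at 72 h and 189.6 at 120 h. At each time it was above both withdrawal libraries, and the later 3 were above all 20 withdrawal libraries, 0 h included. The ratio to the withdrawal mean was 1.44, 2.91, 4.38 and 5.60 in time order. The mean difference was 1.74 ± 0.26 (adjusted p = 0.00368). Erg gave 85.3, 148, 123 and 107 CPM in R07, likewise above both withdrawal libraries at each time and above all 20 from 36 h on. Its mean difference was 1.33 ± 0.31 (adjusted p = 0.0220). The adjusted p was 0.0594 or 0.0546 when either 120 h withdrawal library was left out, and 0.0645 when the 72 h R07 library was. In all, Erg was called in 7 of the 12 fits that each left out 1 library.

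Runx3 gave 77.7, 83.7, 86.2 and 81.8 CPM in the R07 libraries, a range of 77.7 to 86.2 CPM close to the 78.5 to 92.3 CPM of 0 h. It was below both withdrawal libraries at 12 h and above both at the later 3 times, and the ratio was 5.03 at 120 h. The mean difference was 1.17 ± 0.31 (adjusted p = 0.0345), which 8 of 16 alternatives did not call, the highest adjusted p being 0.142 without the 72 h R07 library. T and NK cell markers summed to 22.2 to 79.8 CPM in R07, mostly Tcf7, Thy1 and Nkg7.

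Spi1 gave 95.6, 176, 132 and 95.0 CPM in R07. Every one of these was below both withdrawal libraries of its time and above both 0 h libraries. The withdrawal mean was 1.60, 1.25, 2.79 and 5.70 times the R07 level in time order, and the mean difference was -1.16 ± 0.31 (adjusted p = 0.0346, and 0.127 without the 72 h R07 library). Fli1 gave 64.8, 89.2, 81.2 and 58.6 CPM, below withdrawal at each time, with a mean difference of -0.73 ± 0.17 (adjusted p = 0.0215, and 0.0879 without the 72 h R07 library). Ets1 had 1, 2, 3 and 0 counts in R07 against 863 in the 120 h withdrawal libraries together, at least 187-fold higher there than a floor of 3 counts in the 120 h R07 library. The lower end of the 95% counting interval of that ratio was 151. At 72 h the ratio of withdrawal to R07 was 74.5 (95% counting interval 25.3 to 363). The fitted difference for Ets1 was called at an adjusted p of 0.0488, and at 0.244 without the 72 h R07 library it was not. Among fits that each left out 1 library, Spi1 was called in 7 of 12, Fli1 in 9 of 12 and Ets1 in 3 of the 8 that tested it.

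Runx1 gave 44.1, 92.2, 74.1 and 56.8 CPM in R07. It lay below both withdrawal libraries at 12, 72 and 120 h and above both at 36 h, the hour of the withdrawal dip. The mean difference of -0.64 ± 0.23 was not called, and without the 36 h R07 library it was (adjusted p = 0.00545). In R07 the Runx1 share of the RUNX level was 11.0, 17.8, 13.5 and 11.1%, below the 22.3 to 59.4% of withdrawal libraries from 8 h on. Elf4 gave 107, 145, 146 and 106 CPM, Ets2 30.1, 26.3, 28.5 and 32.5 CPM, and Etv6 264, 412, 385 and 319.9 CPM in time order. For Ets2 the R07 libraries, the 120 h one included, stayed within the range of the withdrawal libraries up to 72 h.

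Against the 0 h libraries, with R07 as 1 group whose times add to the spread, none of 9 tested members was called by edgeR, and 0% of 13704 genes were. At an unadjusted p under 0.05 there were 2868 genes and 1 member, Runx1. Runx1 differed by 1.10 ± 0.30 (adjusted p = 0.144), was above both 0 h libraries in 4 of 4 R07 libraries, and was called by DESeq2 (adjusted p = 0.0165, 1242 genes called) and without the 12 h R07 library (adjusted p = 0.0189, 2256 genes called). Runx2 and Runx3 differed from 0 h by 0.12 ± 0.21 and -0.09 ± 0.15 (adjusted p = 0.774 and 0.752). This comparison and the withdrawal comparison at 0 h share the 0 h libraries.

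Among the lists in R07 against withdrawal, 6 of 39 tested genes with PU.1 elements were lower and none higher beside 16.6% of all genes called, a share near the background, with a median of -1.20 beside 0.06 for all genes. Tlr4 (-1.51 ± 0.38), the lipopolysaccharide receptor, and Ncf1 (-1.50 ± 0.35), an oxidase subunit, were lower (adjusted p at most 0.0284). Of the PU.1 partners, 3 of 14 were lower, among them Irf4 (-3.79 ± 1.01) and Cebpe (-2.81 ± 0.15), a factor of granulocyte maturation (adjusted p at most 0.0336). Of 9 stem and progenitor factors only Meis1, the HoxA9 cofactor, was called (2.68 ± 0.34, adjusted p = 0.00202). Of 11 RUNX partners Tle4 was higher (0.68 ± 0.18, adjusted p = 0.0350) and Hipk2, a kinase, lower (-1.80 ± 0.29, adjusted p = 0.00515). Of 17 genes with RUNX elements 2 were higher (Rag1 and Tcf7) and 2 lower (Cebpe and Spi1). Of 10 other ETS genes 2 were higher, of which Elk4 changed by 0.61 ± 0.14 (adjusted p = 0.0202).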

How the data were processed

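Polyadenylated RNA was sequenced from 24 libraries with a stranded kit. The deposited table holds raw counts per gene; per the submitters' processing notes the authors used STAR 2.4.2a, Picard and mm10, while the counting program and its strand setting are not given in the sources used here. The 4 lines that name no gene held 14.3 to 17.3% of reads and were left out of library sizes and tests. Every per-sample column was used. Symbols were read for 44671 of 45318 Ensembl genes and positions from the GENCODE annotation of mm10, both by identifier.

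Library sizes were scaled by TMM, low counts were filtered with filterByExpr, and the quasi-likelihood test of edgeR 4.0.16 was used (R 4.3.3, limma 3.58.1). P-values were adjusted by Benjamini and Hochberg's method across the whole filtered table, and genes were called below 0.05. Time was a factor in 1 fit of the 20 withdrawal libraries. R07 was compared with the 8 withdrawal libraries of its 4 times (time as a factor), with 0 h as 1 group, and, added after seeing the data, for a linear change of its difference with hours. The tests were also run on simulated counts with 1 spread for all genes, changes of fixed size and no other effect of time. That setting is simpler than these data, so no conclusion is drawn from it. Levels are CPM, likeness uses log2 CPM with a prior count of 2, and per kb values divide by the exon length. The precision behind a value follows its counts, 36.7 to 49.6 M in total per library.

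The members and the gene lists were chosen with earlier results of these data known. Named genes were all 10 members, the 3 genes most like each by Pearson r, and from each list the 2 called genes with the highest and the 2 with the lowest change. Likeness genes and list genes were named only where mean log2 CPM was 3 or more, so list genes of lower level with larger changes were passed over. Alternatives were RLE scaling, no filter, DESeq2 1.42.0, other libraries in the fit, a block on the column letter, a linear trend, and leaving out each library. A and B name columns; the labels' replicate numbers are not tied to them.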

Additional observations from a re-analysis of the deposited data

Results flagged for a closer look

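For 7 of the 10 genes the difference between R07 and withdrawal changed with time, by a test of the interaction of group and hours that was added after the data were seen (edgeR quasi-likelihood, Benjamini-Hochberg adjustment); 38.9% of all genes were called by it. Per 24 h, the R07 minus withdrawal difference on the log2 scale changed by 0.53 ± 0.05 for Runx3 (adjusted p = 6.47e-05), by 0.41 ± 0.08 for Runx2 (adjusted p = 0.00316), by 0.47 ± 0.15 for Erg (adjusted p = 0.0273) and by 0.31 ± 0.08 for Etv6 (adjusted p = 0.0127). It changed by -0.48 ± 0.11 for Spi1 (adjusted p = 0.00566), by -0.51 ± 0.15 for Ets2 (adjusted p = 0.0218) and by -0.32 ± 0.09 for Elf4 (adjusted p = 0.0226). The calls of Runx2 and Runx3 remained under each of 14 alternatives. Without the 120 h R07 library, 3 of the 10 genes were called, and Spi1 (-0.26, adjusted p = 0.337), Erg (0.64, adjusted p = 0.14), Ets2 (-0.56, adjusted p = 0.212) and Elf4 (-0.12, adjusted p = 0.608) were not. Without the 12 h R07 library, Erg (0.33, adjusted p = 0.144), Ets2 (-0.46, adjusted p = 0.103) and Etv6 (0.18, adjusted p = 0.0663) were not called.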

How the results depend on the processing

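The 10 of 10 calls over the course and at 120 h remained under each alternative. Calls against 0 h, 66 in all, ranged from 62 to 66 under other settings and from 58 to 66 without single libraries, and the 34 calls between neighbouring times from 32 to 37 and from 28 to 37. At 4 h, 5 members were called, 3 with only those times in the fit, and 2 to 5 without single libraries (2 without 4 h A or 0 h B, and 3 without 0 h A, 8 h A, 4 h B or 8 h B). R07 against withdrawal gave 6 calls, and 1 to 8 without single libraries, with 1 without the 72 h R07 library or 72 h B, 2 without 72 h A or 120 h B, and 3 without 120 h A or 36 h B. R07 against 0 h gave 0 calls, 1 with DESeq2, and 0 to 1 without single libraries (1 without the 12 h R07 library). The change per 24 h gave 7, and 3 to 8 without single libraries (3 without the 120 h R07 library). Ets2 at 120 against 96 h turned from 0.07 (adjusted p = 0.762) to -0.31 (adjusted p = 0.0186) without 96 h library B and to 0.59 (adjusted p = 9.31e-05) without 96 h library A, the lowest and highest over libraries left out; the cause was not tested. The column letters were not shown to pair the libraries: the correlation of A minus B between times ran from -0.16 to 0.21 over 45 pairs of times. With a replicate block on the letter, 66 calls against 0 h and 34 between neighbouring times were made, Fli1 at 8 h was lost (adjusted p = 0.0545) and Elf4 at 36 h gained (adjusted p = 0.0266). Depth limits Ets1 up to 36 h, at 0 to 6 counts per library.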
